A study of Mus musculus with 4 samples.

Results

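Regulatory T cells were chosen by the transcripts that each cell held, in 4 mouse single-cell RNA-seq libraries. A cell was taken when it had at least 1 UMI (unique molecular identifier, 1 counted transcript) of Cd3e, Cd3d or Cd3g, at least 1 of Foxp3, none of Cd8a or Cd8b1, at most 1 of the proliferation genes Mki67 and Top2a together, and at most 2 of the myeloid gene Lyz2. That rule found 753 cells, called Treg below, among 35372 cells kept for having 500 genes or more and no more than 10% of UMIs from mitochondrial genes. The study, on glycans and immune checkpoint blockade in ovarian tumours, had 1 library per group, each labelled lymph node: a control (ctrl), 2DG (2-deoxy-D-glucose, a glucose analogue), aPDL1 (read here as an agent against the checkpoint ligand PD-L1), and both agents (2DG_aPDL1, the combination). The labels give no strain, age, dose, time, tumour or number of animals for any library, although the series text mentions mice that differ in age. In the order ctrl, 2DG, aPDL1 and combination there were 61, 291, 216 and 185 Treg, and they held 384682, 1662720, 1228829 and 949171 UMIs. The ctrl values therefore rest on the fewest transcripts.

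Treg are CD4 T cells that restrain other immune cells, and the transcription factor Foxp3 sets their programme. They depend on interleukin-2 from other cells, which they bind through the high-affinity receptor chain CD25 (Il2ra), and they act through surface molecules such as CTLA-4 and through activation of the growth factor TGF-beta. In tissues and tumours, effector Treg carry receptors such as KLRG1, ST2 (Il1rl1) and CD103 (Itgae) and can make the repair factor amphiregulin (Areg), while resting Treg keep lymph node homing receptors such as CCR7.

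The markers of the label were present in every library. Values below are CPM, the UMIs of a gene scaled to a common total of the summed UMIs of a cell class, in the order ctrl, 2DG, aPDL1 and combination. Il2ra stood at 1048, 1168, 1317 and 1501 CPM in Treg, and Ikzf2, which encodes Helios, at 5215, 4899, 4827 and 4819 CPM. Cd4 transcripts were sparse: after thinning each cell to 2500 UMIs, Cd4 was seen in 28.8%, 40.1%, 32.5% and 36.0% of Treg, against 73.1% to 78.3% of the conventional CD4 cells, which had to hold one to be chosen. Ikzf2 was seen in 96.6% to 98.3% of thinned Treg and Il2ra in 64.4% to 78.9%. Among thinned conventional CD4 cells Ikzf2 was seen in 65.7%, 55.6%, 47.7% and 32.3%, and Il2ra in 11.1% to 21.5%. Cells just inside the threshold resembled those well inside it, since Treg with exactly 1 Foxp3 UMI held 1004 to 1508 CPM of Il2ra and those with 2 or more held 1010 to 1498 CPM. CD4 cells just outside it, with no Foxp3 UMI, held 139 to 259 CPM. Foxp3 itself is part of the rule, so its level of 460.1, 491, 499.7 and 492 CPM is a description.

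A Foxp3 UMI was rare in cells that should lack the gene. It was seen in 0.348%, 0.656%, 0.470% and 0.173% of macrophages or monocytes, whose median depths were 12115, 8531, 7379 and 7559 UMIs, deeper than Treg at 5814, 5244, 5129 and 4776 UMIs. In T cells with a Cd8a or Cd8b1 UMI, which the rule left out, it was seen in 2.56%, 3.48%, 2.29% and 1.76%. Of 147, 522, 393 and 291 Foxp3-positive cells, the rule also left out 44, 50, 47 and 20 for holding no UMI of the Cd3 genes. Among those with Cd3 and without Cd8a or Cd8b1 UMIs, it left out 28, 118, 65 and 43 with 2 or more Mki67 and Top2a UMIs. No Treg barcode was shared between libraries, although any pair of libraries shared 22 to 30 barcodes over all cells. The ctrl library stood apart in its makeup, with 774 T cells of 9091 cells against 3372 to 3423 in the other libraries, and with neutrophils at 24.7% of its cells against 1.48% to 2.28%. B cells made up 0.539% to 4.25% of cells in libraries labelled lymph node.

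Treg were a smaller share of all cells in ctrl than in the other 3 libraries, and between 32.5% and 37.7% of the gated CD4 T cells in every library. Of all filtered cells they made up 0.671% in ctrl (exact 95% interval 0.514 to 0.861). The share was 3.66% (3.26 to 4.10) for 2DG, 2.39% (2.08 to 2.72) for aPDL1 and 1.99% (1.72 to 2.30) for the combination. The interval of ctrl lay below the others and that of 2DG above the others. As a share of T cells, Treg stood at 7.88% (6.08 to 10.0), 8.50% (7.59 to 9.49), 6.35% (5.56 to 7.23) and 5.49% (4.74 to 6.31), so the step between ctrl and the rest was not seen on that base. Of Treg and conventional CD4 cells together, they were 34.3% (27.3 to 41.7), 37.7% (34.3 to 41.3), 36.1% (32.2 to 40.1) and 32.5% (28.7 to 36.5), and the 4 intervals overlapped. With every cell thinned to 3000 UMIs, the last share was 35.4%, 36.7%, 36.7% and 30.4%. These intervals cover counting error only, and with 1 library per group no difference between treatments has a replicate check.

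**Figure D1:**
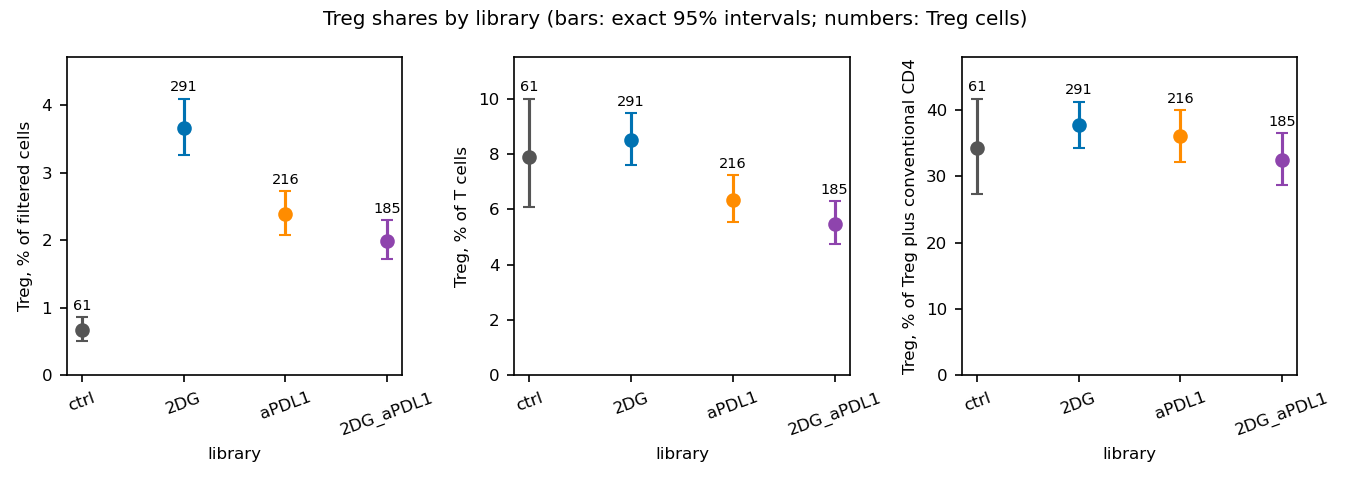
Treg as a percentage of filtered cells, of T cells, and of Treg plus conventional CD4 cells (vertical axes) in each library (horizontal axes). Points are shares, bars exact 95% binomial intervals, and the numbers above them count Treg cells: the ctrl share of 0.671% in the first panel lies under the 1.99% to 3.66% of the others, while the shares of CD4 cells lie between 32.5% and 37.7%.

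Treg were then compared with conventional CD4 T cells of the same libraries, to see what they carry beside the genes that chose them. Conventional CD4 cells had UMIs of Cd3 genes and Cd4, none of Foxp3, Cd8a or Cd8b1, and the same limits on Mki67, Top2a and Lyz2. There were 117, 480, 383 and 384 of them. The genes of both gates were left out. Raw UMIs were summed per class and library, and the 8 sums were fitted with edgeR's quasi-likelihood test with the library as a block and Benjamini-Hochberg adjustment. Of 9092 genes tested, 1024 (11.3%) were higher and 780 (8.58%) lower in Treg at an adjusted p under 0.05, or 19.8% in either direction, and the median log2 fold change was -0.02. The p-values set the difference between Treg and conventional cells against its spread over these 4 libraries, which also differ in treatment. The labels do not say whether the libraries came from separate animals.

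The surface and signalling genes that define Treg were higher nearly throughout. Of 15 tested genes on the list of Treg identity, 12 rose and none fell, against the 11.3% of all genes that rose. Il2ra stood at 1048, 1168, 1317 and 1501 CPM in Treg and at 158, 139, 259 and 173 CPM in conventional CD4 cells (log2 fold change 2.84, SE 0.13, adjusted p = 1.77e-07), and the groups did not overlap. Ctla4, the inhibitory receptor that takes CD80 and CD86 from antigen-presenting cells, stood at 1759.9, 1830.1, 1597 and 2826 against 814, 670.4, 728 and 1267 CPM (log2 fold change 1.24, SE 0.08, adjusted p = 5.65e-08). The combination library was the highest of the 4 in both classes. Lrrc32 (GARP, chromosome 7, 98489283 to 98502181 on GRCm38), which holds latent TGF-beta on the Treg surface, stood at 28.6, 46.3, 31.7 and 73.7 against 0, 2.01, 5.18 and 3.74 CPM (log2 fold change 3.91, SE 0.34, adjusted p = 2.91e-06). Among the others that rose were Izumo1r (log2 fold change 1.97), the folate receptor family member FR4, Ikzf4 (1.82), Tnfrsf4 (1.61) and Tnfrsf18 (1.13). Ikzf2 was at 4819 CPM or more in every Treg sum and at 1521 CPM or less in every conventional sum (log2 fold change 2.43, SE 0.35, adjusted p = 0.0210). Its call was lost without the 2DG library and without the aPDL1 library. Nrp1, often used to mark thymus-derived Treg, did not pass, at 130.0, 192, 270.2 and 201 against 218, 182, 381 and 405 CPM (adjusted p = 0.0592). The list names what Treg are known for, and its direction is no independent evidence.

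Suppressive molecules divided in 2 directions. Of 17 tested, 7 rose, 3 fell and 7 did not pass. Areg (chromosome 5, 91139599 to 91148432), the repair factor amphiregulin, stood at 185, 251, 334 and 767 CPM in Treg and at 26.9, 32.5, 44.8 and 65.0 CPM in conventional cells (log2 fold change 3.13, SE 0.13, adjusted p = 3.10e-09). Each Treg value exceeded every conventional one. Itgb8, an integrin chain that frees TGF-beta from its latent form, stood at 572, 348, 307 and 404 against 141, 108, 85.7 and 58.0 CPM (log2 fold change 2.09, SE 0.16, adjusted p = 8.17e-06). Il10, the inhibitory cytokine, stood at 83.2, 50.5, 66.7 and 47.4 against 15.4, 20.8, 27.3 and 36.0 CPM (log2 fold change 1.21, SE 0.23, adjusted p = 0.00277), from few transcripts. Fgl2 (1.12), Ebi3 (0.88) and Cd274 (0.68), which encodes PD-L1, rose as well, with the call of Ebi3 lost without 2DG, without aPDL1 and without the combination. The inhibitory receptors Lag3 (log2 fold change -1.73) and Pdcd1 (-1.43) and the pore protein Prf1 (-1.13) fell. Gzmb, a cytotoxic granule protease, was higher in 4 of 4 libraries, at 242, 98.6, 139 and 142 against 24.3, 76.8, 49.0 and 66.9 CPM, and did not pass (adjusted p = 0.150).

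Effector genes of tissue Treg were mostly higher. Of 20 tested, 13 rose and 3 fell. Klrg1 (chromosome 6, 122270596 to 122282882), a receptor for cadherins, stood at 135, 247, 269 and 220.2 CPM against 19.2, 18.1, 18.4 and 5.61 CPM (log2 fold change 3.98, SE 0.25, adjusted p = 4.79e-06), and Itgae (chromosome 11, 73090583 to 73147446), the CD103 chain that binds epithelial E-cadherin, at 325, 303, 347 and 263 against 17.9, 34.2, 33.0 and 8.89 CPM (log2 fold change 3.70, SE 0.24, adjusted p = 2.22e-05). Neither gene's groups overlapped. Il1rl1, the interleukin-33 receptor, stood at 172, 88.4, 148 and 171 against 33.3, 11.7, 23.1 and 31.3 CPM (log2 fold change 2.63, SE 0.14, adjusted p = 1.23e-08). The activation receptor Tnfrsf9 (4-1BB) stood at 803, 872, 904 and 1740.5 against 270.4, 231, 264 and 289 CPM (log2 fold change 2.01, SE 0.15, adjusted p = 2.37e-05), again highest in the combination. The 3 that fell were Batf (-0.91), Id2 (-0.67) and Bhlhe40 (-0.27), transcription regulators shared with activated conventional T cells. The call of Bhlhe40 had an adjusted p of 0.0477 and was lost without any 1 of the 4 libraries.

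These effector genes were seen in part of the Treg only. After thinning to 2500 UMIs, Klrg1 was detected in 25.4%, 34.7%, 37.8% and 32.0% of Treg and in 1.1% to 5.6% of conventional CD4 cells. Itgae was detected in 44.1%, 40.4%, 42.1% and 36.5% of Treg, and Il1rl1 in 13.6%, 14.4%, 19.1% and 18.0%. Macrophages or monocytes, which should lack Klrg1 and Itgae, showed them in 0 to 0.8% of cells. A cell without a UMI may still express the gene, so these shares are lower limits on the cells that express it.

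Genes of resting and lymph node homing cells went both ways, with 6 of 12 higher and 3 lower. Il7r, the interleukin-7 receptor, stood at 912, 364, 428 and 639.5 CPM in Treg and at 345, 128, 233 and 405 CPM in conventional cells (log2 fold change 1.12, SE 0.14, adjusted p = 3.41e-04). Satb1, a chromatin organiser, Ccr7, Klf2 and Ccr9 were among the others that rose, with log2 fold changes of 0.81, 0.81, 0.67 and 1.10, the last lost without 2DG. The survival gene Bcl2 fell, at 70.2, 124, 161 and 137 against 786, 543, 574 and 472 CPM (log2 fold change -2.13, SE 0.24, adjusted p = 0.00189), as did the memory factor Tcf7 (-2.22) and Bach2 (-0.96). This list depended on which conventional cells were compared: against those with no Il2ra and no Ikzf2 UMI, 1 of 11 genes was higher and 5 were lower. That comparison left 28, 133, 123 and 160 conventional cells, with median depths of 4574.5, 5170, 4888 and 4493 UMIs, and was chosen after seeing the data.

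Helper T cell genes were mainly lower in Treg, with 8 of 12 tested down and 3 up. Ifng, the cytokine of type 1 helper cells, stood at 10.4, 25.9, 43.9 and 37.9 CPM against 174, 338, 402 and 447 CPM (log2 fold change -3.49, SE 0.13, adjusted p = 1.17e-09). Il13, a type 2 cytokine, had no UMI in any Treg sum and 12.8, 29.5, 36.7 and 16.4 CPM in conventional cells (adjusted p = 5.56e-06). Set against a floor of 3 UMIs per library, it was at least 1.64, 16.3, 15.1 and 5.18-fold lower in Treg in the 4 libraries. Eomes (-3.80), Tbx21 (-1.28), Cd40lg (-3.60) and Il21 (-3.13) fell too, and these encode 2 type 1 transcription factors, the ligand that helps B cells, and a follicular helper cytokine. The 3 that rose were Ccr6 (1.54), Cxcr3 (1.10) and Gata3 (0.45), of which the first 2 are homing receptors, and the call of Gata3 was lost without 2DG and without aPDL1. The calls of Ccr6 and Cxcr3 were lost against conventional cells with no Il2ra and no Ikzf2 UMI, where 1 of 9 genes on the list was higher and 5 lower. Without the 2DG library 5 of 11 genes on the list were lower. The list's median was -1.17, with Il13 as fitted and with Il13 at its floor alike.

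Chemokine receptors were mostly higher in Treg, with 1 large exception. Ccr2, the receptor for inflammatory monocyte chemokines, stood at 338, 416, 382 and 442 CPM in Treg and 60.2, 61.3, 90.5 and 86.0 CPM in conventional cells (log2 fold change 2.44, SE 0.12, adjusted p = 6.90e-09). Cxcr6, which binds CXCL16 in tissues, went the other way at 20.8, 36.1, 41.5 and 34.8 against 365, 293, 322 and 382 CPM (log2 fold change -3.21, SE 0.14, adjusted p = 3.10e-09). Ccr8 was 91.0, 81.2, 96.8 and 120.1 against 56.4, 32.2, 52.8 and 68.3 CPM (log2 fold change 0.98, SE 0.14, adjusted p = 1.10e-04). Of 14 chemokine and related receptors tested, 9 rose and 2 fell, and against conventional cells with no Il2ra and no Ikzf2 UMI 3 of 12 rose. Ccr2 is also a monocyte gene. The 11 myeloid markers summed to 189.8, 70.4, 132 and 100.1 CPM in Treg and to 6851, 8059, 6783 and 7968 CPM in macrophages or monocytes. Of 8 of those markers tested, none passed by edgeR (1 was lower at an unadjusted p under 0.05) or by DESeq2. Of 4 B cell markers tested, 3 were higher in Treg, Ighm (log2 fold change 2.59), Cd79b (2.14) and Igkc, and the 8 on the list summed to 169, 297, 441 and 319 CPM in Treg against 25.6, 111, 203 and 73.0 CPM. Of 4 CD8 T cell and 4 NK cell markers tested, 3 of each were lower, among them Gzmk (-4.77) and Eomes. The 4 CD8 markers summed to 759, 1291, 1182 and 1097 CPM in Treg and to 4347, 6703, 4340 and 3917 CPM in conventional cells. In CD8 T cells, chosen without Cd4 or Foxp3 UMIs, they summed to 6195, 9648, 9175 and 11608 CPM. The 8 NK cell markers summed to 44.2, 93.8, 215 and 105 CPM in Treg against 313, 408, 311 and 338 CPM in conventional cells. The part of these cells in the results was not tested.

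Of 13 co-stimulation genes, among them receptors of the TNF receptor family, 9 rose and 3 fell, and the 3 were Cd40lg, Cd226 (-0.86) and Cd28 (-0.47). Tnfrsf8 (CD30) stood at 49.4, 60.7, 67.5 and 94.8 against 14.1, 14.1, 26.9 and 25.7 CPM (log2 fold change 1.79, SE 0.17, adjusted p = 4.38e-06). Genes of the NF-kB pathway, which these receptors feed, had 11 of 15 higher and none lower, among them Birc3 (0.81), Traf1 (0.78), Nfkbia (0.75) and Ltb (0.86). In the interleukin-2 pathway 6 of 13 rose, including the feedback regulators Socs2 (1.55) and Cish (0.54) and the transcription factors Stat5a (0.69) and Stat5b (0.30). Bcl2 and Socs3 (-0.39) fell. The call of Stat5b was lost without 2DG and without the combination, that of Socs3 without any 1 of the 4 libraries, and without 2DG 4 of the 13 rose.

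Some interferon-inducible genes were higher in Treg. Of 22 tested genes of the interferon gamma response, 12 rose, none fell and 10 did not pass, and of 26 type I response genes 11 rose, none fell and 15 did not pass, against 11.3% of all genes higher. By DESeq2, 10 of the 22 and 5 of the 26 were higher. Igtp, an interferon-induced GTPase, stood at 112, 185, 159 and 141 against 32.0, 44.9, 67.4 and 42.6 CPM (log2 fold change 1.71, SE 0.15, adjusted p = 1.17e-06). Ifi27l2a stood at 629, 823, 693 and 1342 against 210.2, 309, 356 and 485 CPM (log2 fold change 1.37, SE 0.10, adjusted p = 5.46e-07). Iigp1 had a larger difference, at 218, 267, 209 and 160.1 against 5.13, 31.2, 44.8 and 39.7 CPM (log2 fold change 2.72, SE 0.41, adjusted p = 0.0132), and its call was lost without the 2DG library. In MHC class I presentation 6 of 12 rose, by small amounts, such as 0.25 for B2m and 0.31 for H2-K1 on the log2 scale. Against conventional cells with no Il2ra and no Ikzf2 UMI, 9 of 22 interferon gamma genes and 4 of 25 type I genes were higher, beside 689 of 7576 over all genes. Without the 2DG library 7 of 26 type I genes and 3 of 12 class I genes were higher, and H2-K1 lost its call. The call of B2m was lost without 2DG, without aPDL1 and without the combination.

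In the PD-1 axis, the receptor was lower and its ligands higher, though the calls of both ligands depended on which conventional cells were compared. Pdcd1, which encodes PD-1, stood at 138, 117, 106 and 96.9 CPM in Treg and at 278, 269.5, 331 and 346 CPM in conventional cells (log2 fold change -1.43, SE 0.13, adjusted p = 3.70e-06), without overlap. Cd274 (PD-L1) stood at 307, 278, 244 and 200.2 against 231, 124, 161 and 155 CPM (log2 fold change 0.68, SE 0.13, adjusted p = 0.00170), and Pdcd1lg2 (PD-L2) at 96.2, 66.8, 62.7 and 92.7 against 57.7, 44.6, 54.7 and 63.6 CPM (log2 fold change 0.52, SE 0.14, adjusted p = 0.0140). The call of Pdcd1lg2 was lost without 2DG, without the combination, by DESeq2 and without the library as a block. Cd80, which also binds PD-L1, stood at 185, 121, 160.3 and 111 against 46.1, 46.3, 64.1 and 42.6 CPM (log2 fold change 1.49, SE 0.13, adjusted p = 1.67e-06). Against conventional cells with no Il2ra and no Ikzf2 UMI, 1 of the 5 genes was higher, and both Cd274 and Pdcd1lg2 lost their calls. Genes of the TGF-beta pathway divided: Tgfbr1 rose (1.16), while Tgfbr2 (-1.07) and Tgfbr3 (-4.72), the type II and type III receptors, fell. In all 6 of 13 genes on that list rose and 2 fell, and without 2DG 4 rose.

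Beside the median of -0.02 over all genes, the median log2 fold change was 1.55 for Treg identity, 0.68 for suppressive molecules, 0.58 for effector genes and 0.31 for resting genes. It was 0.79 for chemokine receptors, 0.66 for co-stimulation, 0.00 for the interleukin-2 pathway, 0.50 for NF-kB, 0.48 for the interferon gamma response and 0.44 for the type I response. Of these 10 lists, identity genes had the highest median.

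Metabolic and stress lists are given beside the shares over all genes, of which 11.3% rose, 8.58% fell and the rest did not pass. For oxidative phosphorylation 1 of 45 genes fell and none rose, for glycolysis 4 of 21 rose and 1 fell, for lipid synthesis and oxidation 1 of 17 rose, for N-glycosylation 2 of 30 rose and 2 fell, and for heat shock none of 12 passed by edgeR (1 was lower at an unadjusted p under 0.05) or by DESeq2. By DESeq2 1 of the 21 glycolysis genes was higher and none lower. On the glycolysis list, Arrdc4, an arrestin and not an enzyme of glycolysis, rose (log2 fold change 2.13). Slc16a3, a lactate exporter, rose (0.96), and Hk2, a hexokinase, fell (-0.60). The list also holds Txnip, another arrestin. The call of Slc16a3 was lost without 2DG and that of Hk2 without ctrl, without aPDL1 and without the combination. Without 2DG 1 of 20 glycolysis genes rose and without aPDL1 2 of 20. In N-glycosylation, the trimming enzyme Man1a stood at 468, 749, 857 and 859 against 414, 505, 441 and 358 CPM (log2 fold change 0.80, SE 0.15, adjusted p = 0.00544), and Uap1, which makes the sugar donor UDP-GlcNAc, rose (1.06). Dgat1, a triglyceride-forming enzyme, was the lipid gene that rose (log2 fold change 0.97, SE 0.11, adjusted p = 1.88e-05). Ribosomal protein genes had 9 of 40 lower, and 3 lower without 2DG or without aPDL1. With likely doublets removed by Scrublet 17 of 40 were lower, and with no filter on low counts 13. Early response genes of T cell receptor signalling had 5 of 18 higher, among them Nr4a1 (1.05), and 4 lower, among them Nr4a2 (-1.29), Egr1 (-0.59) and Egr2 (-2.18). Without 2DG 2 of the 18 were higher, and without the combination 3.

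**Figure D2:**
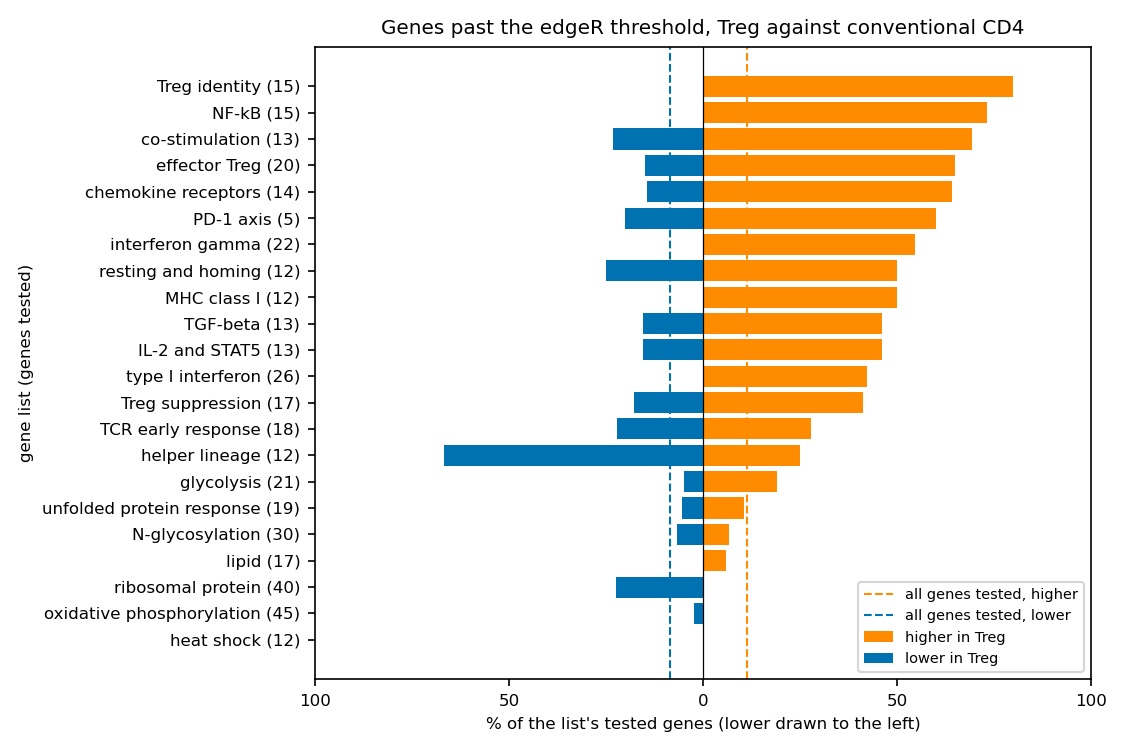
For each gene list, the percentage of its tested genes that were higher (right, orange) or lower (left, blue) in Treg at an edgeR adjusted p under 0.05, with the number tested in brackets. Dashed lines mark all genes tested, 11.3% higher and 8.58% lower; Treg identity has 12 of 15 higher and the helper lineage list 8 of 12 lower.

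Several genes outside these lists were among the largest differences. They were ranked over genes that passed the test, differed in the same direction in all 4 libraries and reached a mean of 20 CPM in Treg or conventional cells, with receptor segments and unnamed genes left out. Within those limits Rln3 had the largest log2 fold change, at 15.6, 31.3, 28.5 and 20.02 CPM in Treg against 0, 1.68, 1.41 and 1.87 CPM (log2 fold change 4.07, SE 0.36, adjusted p = 1.77e-06), from 6 to 52 UMIs per library. It encodes relaxin-3, a peptide hormone. Frmd5, a cytoskeletal adaptor, stood at 1484, 988, 545 and 653 against 119, 43.9, 71.6 and 14.5 CPM (log2 fold change 4.04, SE 0.49, adjusted p = 0.0132), and its call was lost without the 2DG library. Frmd5 transcripts came from 31, 99, 62 and 48 Treg. Nckap5, Cep112, Ncmap, Pigz, Ky and Pard6g completed the 12 highest with Klrg1, Lrrc32, Itgae and Areg, and Nckap5 stood at 98.8, 162, 306 and 217 against 8.97, 13.7, 33.9 and 13.1 CPM (log2 fold change 3.54, SE 0.15, adjusted p = 3.10e-09).

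At the other end stood genes higher in the conventional cells, among them secreted effector molecules. Ccl1, a chemokine for CCR8, stood at 2.60, 4.21, 6.51 and 1.05 CPM in Treg against 373, 225, 182 and 61.3 CPM (log2 fold change -5.50, SE 0.22, adjusted p = 1.71e-09), and Gzmc, a granzyme, at 0, 5.41, 1.63 and 3.16 against 49.98, 156, 146 and 167 CPM (log2 fold change -5.42, SE 0.24, adjusted p = 3.10e-09). Dlg2, a scaffold protein gene known from synapses, stood at 0, 3.01, 1.63 and 9.48 against 304, 147, 294 and 328 CPM (log2 fold change -5.97, SE 0.26, adjusted p = 2.17e-08). Cntn1 had no UMI in any Treg sum and 49.98, 9.72, 10.4 and 27.1 CPM in conventional cells, at least 6.41, 5.39, 4.25 and 8.58-fold lower against the floor of 3 UMIs per library. Atp2b2, Rgs8, Hs6st3 and Il13 completed the 8 lowest, and Atp2b2 stood at 2.60, 0, 0 and 0 against 41.0, 44.2, 23.6 and 31.3 CPM (adjusted p = 6.24e-07).

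**Figure D3:**
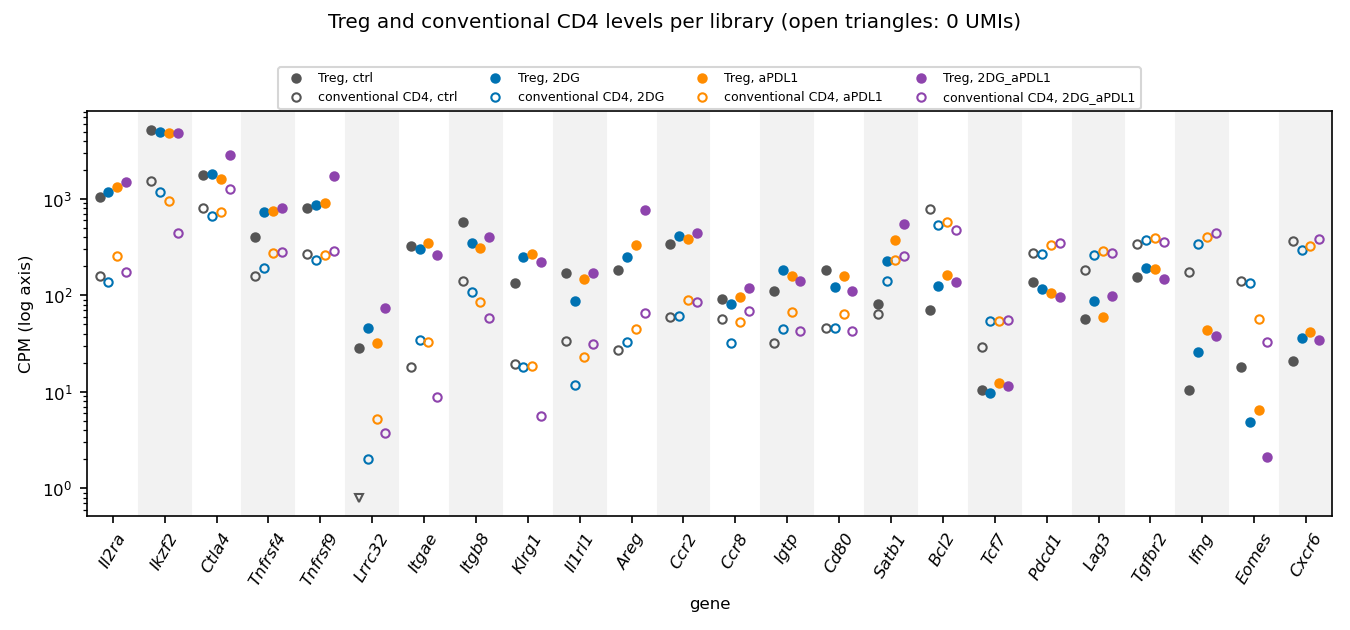
CPM (log axis) of 24 genes in Treg (filled) and conventional CD4 cells (open) of each library, with an open triangle for 0 UMIs. For Il2ra the Treg points lie between 1048 and 1501 CPM and the conventional points between 139 and 259 CPM, while for Bcl2 and Cxcr6 the order is turned.

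The forkhead letters GTAAACA, on either strand, were looked for in the promoters of the genes higher in Treg, because Foxp3 is a forkhead factor. Promoters were the RefSeq windows on GRCm38.p6 from 250 bases before to 50 after the start. Of the 12 highest genes 8 had a promoter in that table and none held the letters, against 4.05% of 27025 genes. Over the genes tested here, 3.37% of 771 higher genes, 3.34% of 598 lower genes and 3.24% of all 7212 genes with a promoter held them. These shares were close to one another, and they describe letters in this window only.

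The treatments were compared within Treg by 2 pairs each. For 2DG, the first pair sets 2DG over ctrl and the second sets the combination over aPDL1. For aPDL1, the third pair sets aPDL1 over ctrl and the fourth sets the combination over 2DG. The pairs share libraries, so they are not independent, and each ratio is of 1 library to 1 library with no test. Ratios are log2 values of CPM with 0.5 added to counts, over genes with 20 or more UMIs in the higher of both libraries, and 1.5-fold was the size at which a gene was counted. In 2DG over ctrl 14.6% of 7547 genes were that much higher and 11.5% lower, and in the combination over aPDL1 7.87% and 13.4% of 7003. In aPDL1 over ctrl the shares were 18.2% and 10.6% of 6857, and in the combination over 2DG 7.72% and 10.6% of 7581. Because 20 UMIs are a lower CPM in a library with more Treg UMIs, a gene could enter a pair through that library alone. In each pair the larger share lay on the side of the library with more Treg UMIs, so the 2 directions of a pair cannot be compared by these shares. Past that size in both pairs were 75 higher (1.1%) and 161 lower genes (2.37%) for 2DG, and 109 (1.63%) and 88 (1.32%) for aPDL1.

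Areg, Tnfrsf9 and Ctla4 were highest in the combination. Areg stood at 185 (144 to 233), 251 (227 to 276), 334 (303 to 368) and 767 (712 to 825) CPM, with Poisson 95% intervals, and the combination exceeded aPDL1 by 1.20 (95% interval 1.02 to 1.38) and 2DG by 1.61 (95% interval 1.44 to 1.79) on the log2 scale. Conventional cells followed the same order at 26.9, 32.5, 44.8 and 65.0 CPM. Areg UMIs came from 15, 108, 76 and 99 Treg, and after thinning it was detected in 13.6%, 26.0%, 27.3% and 46.6% of them, against 2.8% to 6.0% of conventional cells and 0.2% to 2.3% of macrophages or monocytes. Tnfrsf9 stood at 803 (716 to 898), 872 (828 to 918), 904 (852 to 959) and 1740.5 (1658 to 1826) CPM, so that the first 3 libraries lay near one another, and conventional cells were flat at 270.4, 231, 264 and 289 CPM. Ctla4 stood at 1759.9 (1629.8 to 1898), 1830.1 (1766 to 1896), 1597 (1528 to 1669.7) and 2826 (2719.7 to 2935) CPM, and conventional cells showed the same step at 814, 670.4, 728 and 1267 CPM. Over the alternatives tried, the ratios of the combination to the 2 single treatments ran from 1.20 to 1.72 for Areg, 0.80 to 1.06 for Tnfrsf9 and 0.56 to 0.88 for Ctla4.

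The combination lay at least 1.5-fold above the other 3 libraries for 177 of 5967 genes (2.97%) and below them for 99 of 3492 (2.84%). The limit on UMIs applied to the higher library, which was the combination for the higher genes and each of the others for the lower genes. The bases therefore differ, and these shares cannot be compared with each other. Listed genes were found on both sides. The higher ones included Lrrc32 at 28.6, 46.3, 31.7 and 73.7 CPM, Socs3 at 70.2, 71.6, 70.8 and 125 CPM, Ifi27l2a at 629, 823, 693 and 1342 CPM, Dgat1 at 205, 285, 259 and 464 CPM and Stat4, a transcription factor downstream of interleukin-12, at 468, 416, 471 and 772 CPM. The lower ones included Tgfbr1 at 153, 134, 149 and 78.0 CPM and Srebf2, a regulator of cholesterol synthesis, at 101, 137, 131 and 61.1 CPM. By size alone, the leading genes were Brinp3, Hopxos, Sgip1, Aldh7a1, Ramp3 and Scin on the higher side. Brinp3 stood at 0, 0, 0 and 50.6 CPM, and all 48 UMIs came from 1 cell. Hopxos, an antisense transcript at the Hopx locus, stood at 5.20, 5.41, 5.70 and 32.7 CPM from 2, 8, 7 and 21 cells, and no cell of the combination held more than 12.9% of its UMIs. The leading genes on the lower side included Ell, Foxk1, Pid1, Fn1 and B3galt1, with Ell, a transcription elongation factor, at 62.4 (40.0 to 92.8), 34.3 (26.0 to 44.4), 42.3 (31.6 to 55.5) and 10.5 (5.05 to 19.4) CPM. The higher of the macrophage or monocyte and neutrophil levels was 17.8 to 141 times the Treg level for Pid1 and 36.4 to 232 times for Fn1. It was 3.16 to 9.50 times for Ell, and at most 1.57 times for Foxk1 and 0.0464 times for B3galt1. The direction of Pid1 in the combination over 2DG turned with Scrublet removal. The part of myeloid cells in these values was not tested.

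Satb1, a listed gene, was among the 109 of 6684 genes (1.63%) past 1.5-fold and higher in both pairs of aPDL1. It stood at 80.6 (54.8 to 114), 227 (205 to 251), 378 (345 to 414) and 551 (505 to 600.3) CPM, with ctrl below and the combination above the other libraries, and ratios of 2.21 (95% interval 1.71 to 2.81) for aPDL1 over ctrl and 1.28 (95% interval 1.08 to 1.47) for the combination over 2DG. Conventional cells stood at 64.1, 140.1, 232 and 256 CPM. Its UMIs came from 16, 128, 131 and 110 Treg. Ms4a4b, a membrane protein of T cells, stood at 15.6, 53.5, 82.2 and 138 CPM with ratios of 2.29 and 1.36, and conventional cells held more at 278, 293, 363 and 500.4 CPM. Penk, which encodes the enkephalin precursor, stood at 78.0, 149, 201 and 273 CPM, and Xbp1, a factor of the secretory pathway, at 41.6, 40.3, 67.5 and 93.8 CPM. Thsd7b stood at 2.60, 0, 48.0 and 33.7 CPM and was at least 18.7-fold higher in the combination than with 2DG, where it had no UMI. Fam171b and Ebf1 completed the leading genes, and 74.1% of the Ebf1 UMIs of the combination came from 1 cell. Ebf1 is a B cell factor, and the 8 B cell markers summed to 169, 297, 441 and 319 CPM in Treg. Their part in the result was not tested.

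Hspa1b, Hspa1a and Hsph1, 3 heat shock genes, had their highest Treg level in ctrl. Hspa1b, an inducible HSP70 gene, stood at 437 (373 to 508), 140.1 (123 to 159), 54.5 (42.3 to 69.2) and 55.8 (41.8 to 73.0) CPM, with ratios of -3.00 and -1.32 for aPDL1. In the combination 62.3% of its UMIs came from 1 cell. Conventional CD4 cells stood at 463, 189.7, 77.3 and 14.0 CPM. Hspa1a stood at 351, 77.6, 78.1 and 54.8 CPM, and in the combination 80.8% of its UMIs came from 1 cell. Hsph1, an HSP110 co-chaperone, stood at 421 (359 to 491), 153 (135 to 173), 168 (146 to 193) and 98.0 (79.1 to 120.0) CPM and was lower in both pairs of either treatment. The list as a whole had median log2 ratios of -0.33, -0.10, -0.17 and -0.20 in the first to the fourth pair, and of -0.68, -0.10, -0.96 and -0.29 in conventional cells. Of its 12 genes, none was 1.5-fold higher and 5 that much lower in the first pair, beside 14.6% and 11.5% of all genes. In the third 3 were higher and 5 lower, beside 18.2% and 10.6%. In the second and the fourth pair 2 and 3 were lower, beside 13.4% and 10.6%, and none was higher. Egln3 and Prelid2, also lower in both pairs of aPDL1, stood at 46.8, 36.7, 17.9 and 14.7 CPM and at 67.6, 59.5, 24.4 and 24.2 CPM. The higher of the macrophage or monocyte and neutrophil levels was 19.9, 6.96, 31.4 and 14.5 times the Treg level for Egln3 and 0.496 to 1.29 times for Prelid2. The part of those cells in these values was not tested.

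Genes lower with 2DG came with markers of other cells. The 6 leading genes lower with 2DG were Ciita, Eps8, Plbd1, Tbc1d8, Htr7 and H2-Eb1, of which H2-Eb1 is an MHC class II chain and Ciita its regulator. H2-Eb1 stood at 421, 57.1, 324 and 28.4 CPM in Treg, from 10, 39, 29 and 21 cells, and 1 ctrl cell held 56.2% of the ctrl UMIs. Macrophages or monocytes stood at 868, 2328, 1948 and 2154 CPM. When the cells that Scrublet scored highest as doublets were removed, which took out 3, 11, 15 and 5 Treg, the ratios for H2-Eb1 moved from -2.88 and -3.48 to 0.086 and 0.039. Each of the other 5 genes turned its direction in 1 of the 2 pairs. The 8 dendritic cell markers summed to 372, 122, 487 and 131 CPM in Treg, with 3, 0, 0 and 4 of them at 0, and H2-Aa alone stood at 312, 58.3, 370.3 and 26.3 CPM. Their part in the result was not tested beyond that removal. S100a8, a neutrophil gene among the 6 leading genes lower with aPDL1, stood at 465, 33.1, 8.14 and 13.7 CPM, and 70.9% of the ctrl UMIs came from 1 cell. The 8 neutrophil markers summed to 1547, 424, 352 and 456 CPM in Treg, highest in the library with the most neutrophils. In the combination over 2DG the ratio of S100a8 turned from -1.23 to 2.90 with 2 or more Foxp3 UMIs per cell and to 2.76 with 1000 or more genes per cell.

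The genes higher with 2DG rested on few transcripts. Rnf24 stood at 7.80, 35.5, 17.9 and 39.0 CPM, Smarcd1, a chromatin remodelling subunit, at 10.4, 25.3, 13.0 and 28.4 CPM, and Sucla2, a subunit of a mitochondrial citric acid cycle enzyme, at 13.0, 27.7, 16.3 and 33.7 CPM, with ctrl UMIs of 3, 4 and 5. For Sucla2 the ratios were 0.97 (95% interval -0.24 to 2.78) and 1.04 (95% interval 0.20 to 1.93), and the first interval included 0. Sorcs1 had no ctrl UMI and stood at 0, 27.7, 28.5 and 73.7 CPM, which made it at least 3.55-fold higher with 2DG and at least 3.65-fold higher with aPDL1 than in ctrl. Its UMIs came from 0, 4, 5 and 7 cells, and 1 cell held 50% of those with 2DG. Gt(ROSA)26Sor and Sephs2 completed the 6. Of the listed genes, Ifit1, an interferon-induced antiviral gene, was higher in both pairs at 33.8, 54.1, 20.3 and 55.8 CPM, and Lag3 at 57.2, 87.8, 60.2 and 99.0 CPM.

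Irf1, chosen after its values were seen, was lowest in ctrl. It encodes a transcription factor of the interferon gamma response and stood at 166 (128 to 212), 384 (355 to 415), 409 (374 to 447) and 301 (267 to 338) CPM. Conventional cells stood at 147, 274, 312 and 221 CPM. With aPDL1 present, 2DG went with a lower Irf1 level, at -0.44 (95% interval -0.66 to -0.23). The whole interferon gamma list had medians of 0.26, -0.17, -0.07 and -0.35 in the 4 pairs, and the type I list 0.34, -0.00, 0.05 and -0.18. The Il7r level, also chosen after it was seen, was highest in ctrl, at 912 (819 to 1013), 364 (335 to 394), 428 (392 to 466) and 639.5 (589.6 to 692) CPM.

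**Figure D4:**
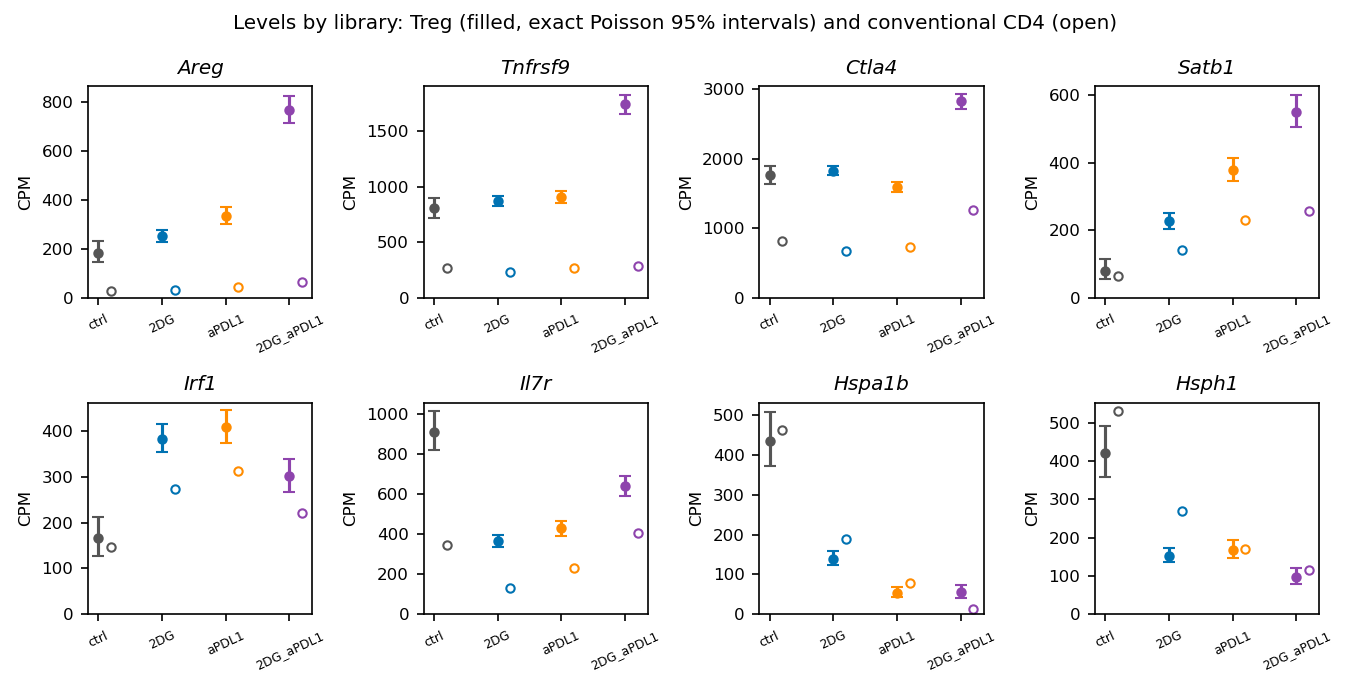
CPM of 8 genes by library in Treg (filled points, bars are exact Poisson 95% intervals) and in conventional CD4 cells (open points). Areg reaches 767 CPM in the combination against 185 to 334 CPM elsewhere, while Hspa1b is at 437 CPM in ctrl and at 54.5 and 55.8 CPM in the libraries with aPDL1, with 62.3% of the UMIs in the combination from 1 cell.

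The oxidative phosphorylation list had a median log2 ratio slightly above 0 in all 4 pairs, each of 1 library to 1 library. Their medians were 0.31, 0.10, 0.49 and 0.26 in the first to the fourth pair, with 39 of 44, 34 of 45, 39 of 44 and 43 of 45 genes above 0. The medians of all genes were 0.02, -0.07, 0.07 and -0.02. Past 1.5-fold and higher were 8 of 44, 3 of 45, 16 of 44 and 4 of 45, beside 14.6%, 7.87%, 18.2% and 7.72% of all genes. The same genes in conventional cells had medians of 0.15, 0.03, 0.20 and 0.07. Ribosomal protein genes in Treg had medians of 0.22 and 0.26 in the second and the fourth pair. Median UMIs per Treg ran from 5814 in ctrl to 4776 in the combination, and their part in the result was not tested.

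Among genes of pathways that 2DG is known to touch, the glycolysis list had median log2 ratios of -0.13, -0.27, 0.11 and -0.24 in the first to the fourth pair. Of its genes 14 of 21 were below 0 in the first pair, 17 of 20 in the second, 8 of 20 in the third and 14 of 21 in the fourth. Past 1.5-fold lower were 1 in the first pair, beside 11.5% of all genes, and 5 in the second, beside 13.4%, and none was that much higher in either. In conventional cells the medians were -0.29, -0.06, -0.02 and 0.10. The medians of N-glycosylation (0.22, -0.22, 0.45 and -0.04), of the unfolded protein response (0.17, -0.09, 0.19 and 0.10) and of lipid synthesis and oxidation (0.32, -0.41, 0.40 and -0.18) were above 0 in the first pair and below 0 in the second. Within N-glycosylation, Man1a stood at 468, 749, 857 and 859 CPM and Uap1 at 49.4, 98.6, 92.8 and 121 CPM, both lowest in ctrl. Hspa5, the chaperone that marks stress of the endoplasmic reticulum, stood at 419, 340.4, 461 and 401 CPM. The glucose transporter Slc2a1 stood at 96.2, 69.8, 55.3 and 59.0 CPM, with -0.48 (95% interval -1.01 to 0.11) in 2DG over ctrl and 0.09 (95% interval -0.44 to 0.62) in the combination over aPDL1, both intervals including 0. Ribosomal protein genes had median log2 ratios of -0.02, 0.22, 0.03 and 0.26, and 36 and 39 of 40 were above 0 in the pairs that set the combination against aPDL1 and against 2DG.

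**Figure D5:**
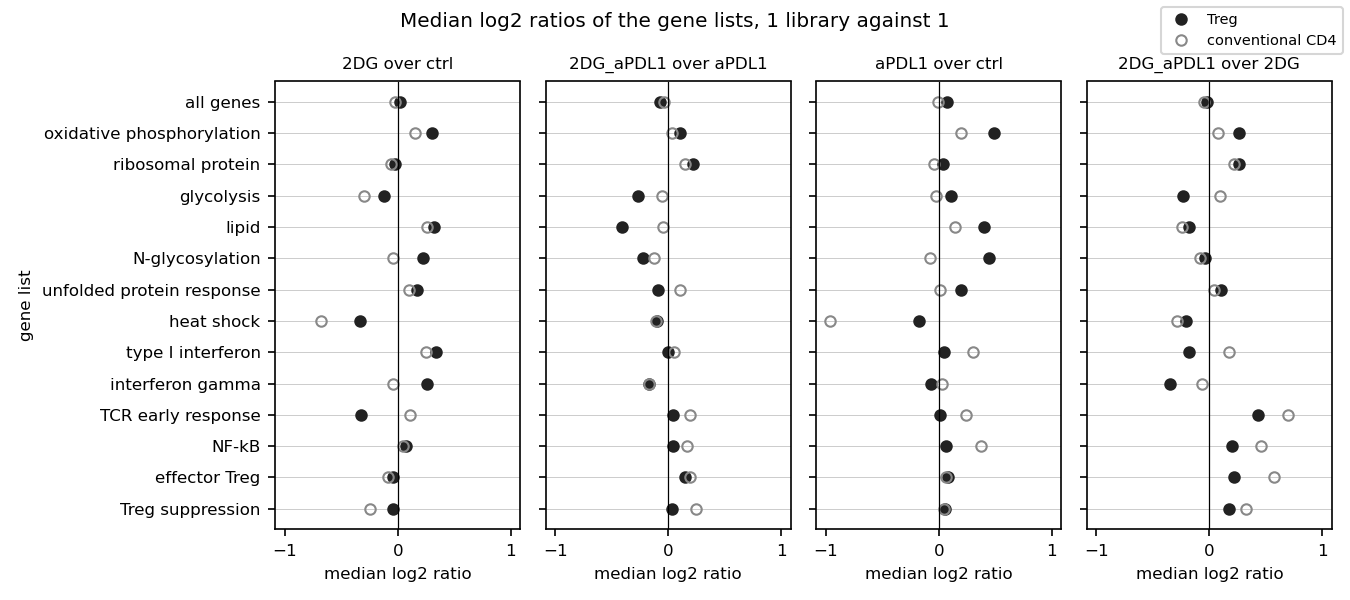
Median log2 ratio (horizontal axes) of each gene list in the 4 pairs of libraries, for Treg (filled) and conventional CD4 cells (open). The oxidative phosphorylation medians lie between 0.10 and 0.49 in Treg, and the medians of all genes between -0.07 and 0.07.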

How the data were processed

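Each of the 4 libraries, made with a droplet 3' kit, came as deposited whole-number UMI counts for every gene in every barcode, not normalized, per the file headers. Those headers name Cell Ranger 7.0.0, the submitters' processing notes Cell Ranger 3.1.0 and mm10; the use of intronic reads, which would raise long genes, is not stated in them.

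Gates on raw UMIs gave each class. Sums per class and library were tested with edgeR 4.0.16 (TMM, filterByExpr, glmQLFit and glmQLFTest, library as block, Benjamini-Hochberg), with DESeq2 1.42.0 as an alternative, after a check on simulated data. Gate genes were left out of counts and names. Library and class totals are in the text. Shares carry Clopper-Pearson 95% intervals and CPM Poisson 95% intervals, which cover counting error only. Fold bounds against 0 used a floor of 3 UMIs per library. Doublets were not removed; Scrublet in scanpy 1.11.5, removing 0.8% per 1000 barcodes, was an alternative, and its own threshold marked 0.0104% of ctrl barcodes and 2.14% to 3.16% of the others. Further alternatives changed the scaling, filters, Foxp3 threshold, cell weights and libraries.

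Named genes were the 12 highest and 8 lowest past the test, in the same direction in 4 of 4 libraries and with 20 CPM or more on average in the higher class; for treatments up to 6 a direction past 1.5-fold in both pairs, with 20 or more UMIs in the higher library. Receptor segment, haemoglobin, mitochondrial and unnamed gene models were passed over, and listed genes were always allowed. Some genes that the rule or the lists name, and 1 comparison within Treg, are not reported here. The members and lists were chosen with earlier results of these data known.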

Additional observations from a re-analysis of the deposited data

Results flagged for a closer look

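The lists of lipid synthesis and oxidation and of N-glycosylation went opposite ways in the 2 pairs that bear on 2DG in Treg. The lipid median log2 ratio was 0.32 in 2DG over ctrl and -0.41 in the combination over aPDL1, and the N-glycosylation median was 0.22 and -0.22. These differences were not tested, since each ratio sets 1 library against 1 library. In conventional CD4 cells the lipid medians were 0.26, -0.05, 0.14 and -0.24 in those pairs and then in both pairs of aPDL1, and the N-glycosylation medians were -0.04, -0.12, -0.08 and -0.08. With the mean of per-cell CPM, the N-glycosylation median in 2DG over ctrl was 0.062, and with 2 or more Foxp3 UMIs it was -0.069 in the combination over aPDL1.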

How the results depend on the processing

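The counts of genes higher and lower in Treg than in conventional CD4 cells, 1024 and 780, were 651 and 469 with no replicate block, that is without the library in the model, which left 1 of 12 resting genes, 1 of 18 early response genes and 2 of 12 class I genes higher and 1 of 40 ribosomal protein genes lower. With DESeq2 they were 694 and 494, with no filter on low counts 1089 and 1166, and with conventional cells lacking Il2ra and Ikzf2 UMIs, an alternative chosen after seeing the data, 689 and 557. Leaving out 1 library each in turn gave 654 to 1003 higher and 497 to 766 lower genes, with the lowest counts without 2DG. No paired analysis beyond the library block was possible because each group had 1 library. With 2 or more Foxp3 UMIs the Treg shares of filtered cells were 0.484%, 2.56%, 1.77% and 1.32%. With 10 or more UMIs in place of 20, genes past 1.5-fold were 163 higher and 291 lower for 2DG, 200 and 184 for aPDL1, and 295 and 195 for the combination. Directions turned for the resting list in 2DG over ctrl, from -0.28 to 0.29 with 2 or more Foxp3 UMIs and 0.053 with the mean of per-cell CPM. With Scrublet removal they turned in 2DG over ctrl for Ciita (0.32), H2-Eb1 (0.086) and Bcl6 (0.39). In the combination over aPDL1 they turned for Eps8 (0.23), Plbd1 (0.23), Tbc1d8 (1.82), Htr7 (3.04), H2-Eb1 (0.039) and Cd86 (0.40), and in the combination over 2DG for Pid1 (0.44). S100a8 turned to 2.90 with 2 or more Foxp3 UMIs and 2.76 with 1000 or more genes, and Pparg in aPDL1 over ctrl to 0.082 with 2 or more Foxp3 UMIs. The cause was not tested, apart from Scrublet removal, which takes out cells by construction. Depth limits ctrl most, where 3 UMIs equal 7.80 CPM in Treg against 1.80 to 3.16 CPM elsewhere.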

Other observations

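Foxp3-positive T cells in the proliferative state lay outside the rule that chose the Treg, which used Mki67 and Top2a. Among cells with UMIs of Cd3 genes and Foxp3, none of Cd8a or Cd8b1 and at most 2 of Lyz2, those with 2 or more Mki67 and Top2a UMIs made up 29.9% in ctrl (exact 95% interval 20.5 to 40.6, 26 of 87 cells), 27.8% with 2DG (23.5 to 32.4, 112 of 403), 22.3% with aPDL1 (17.5 to 27.7, 62 of 278) and 17.0% in the combination (12.3 to 22.6, 38 of 223). The intervals of 2DG and the combination did not overlap, and that of aPDL1 overlapped those of the other 3 libraries. They cover counting error over cells only, and with 1 library per group no difference between treatments has a replicate check. Mki67 and Top2a mark cells in the cycle, and the depth of the cells was not matched for this share.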
